A study of Mus musculus with 24 samples.

Results

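The liver was examined 18 h after mice received tumor cells under the skin. Male C57Bl/6 mice, 8 weeks old, were given 1000000 LL/2(LLC1) cells, a Lewis lung carcinoma line of the same strain, in 300 µl of phosphate-buffered saline (PBS) by subcutaneous injection. Their controls were mice of the same strain, sex and age given 300 µl of PBS alone. Both were killed by decapitation after 18 h, and labelled RNA of tumor and PBS liver went onto one oligonucleotide array as a pair. Every pair was hybridised again with the Cy3 and Cy5 dyes exchanged. The members were the 8 arrays labelled 18 h out of 24 in the series, which form 4 of 12 biological pairs, the others having been collected at 72 and 192 h in 4 pairs each. The labels call the pairs biological replicates and do not say whether a liver sample was a single animal. P-values thus measure the spread between pairs, estimated over all 12 pairs and not over those at 18 h alone.

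Hepatocytes make most plasma proteins, and a tumor or an inflamed site elsewhere in the body is known to reach them through cytokines such as interleukin-6, which raise the acute phase proteins and lower part of the metabolic program. Secreted proteins are folded in the endoplasmic reticulum (ER), where an overload of unfolded protein turns on chaperones and degradation factors through the unfolded protein response. The comparison concerned the liver's transcripts at the first time point, when the injected cells had been in place for less than a day.

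The deposited values were log2 ratios of tumor over PBS, one per spot and array. That direction is likely and rests on reading scan channel A as Cy3, a point not given in the files. If that is wrong, every sign given here turns. The processing behind the table is not stated. Its correlation with the scans of the 18 h arrays, over spots, ran from 0.561 to 0.864 for background-subtracted ratios and from 0.494 to 0.875 for ratios of total intensity, and so did not tell these apart. The slope of the background-subtracted scan ratio on the table value was 1.80 for spots at 1 to 1.5 times background and 1.03 for spots above 8 times background (medians over the scans of all 24 arrays). For ratios of total intensity the slopes were 0.891 and 0.948. Table ratios of dim spots were thus smaller than those of the background-subtracted scans.

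The 8 arrays held very different numbers of spots. Between 1278 and 8768 of 10080 spots had a value, and the arrays of pair 2 had the fewest (2263 and 1278). Both dye orientations were present for 3210, 949, 6505 and 6807 probes in pairs 1 to 4. Missing values went with the scans. No spot that was unmeasured in all 3 scans had a value, while 96.9% of those measured in all 3 had one. Among spots measured in all 3 scans, those saturated in none had a value in 98.6% of cases and those saturated in all 3 in 39.8%. Some bright liver transcripts had few values. Fabp1, the fatty acid binding protein of hepatocytes, had a value on 3 of 8 arrays at a median total intensity of 17.9 times background, and Ahsg, a secreted glycoprotein of hepatocytes, on 2 arrays at 16.6 times background. At the dim end, 48.8% of the values of probes under 2 times background were present.

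**Figure D1:**
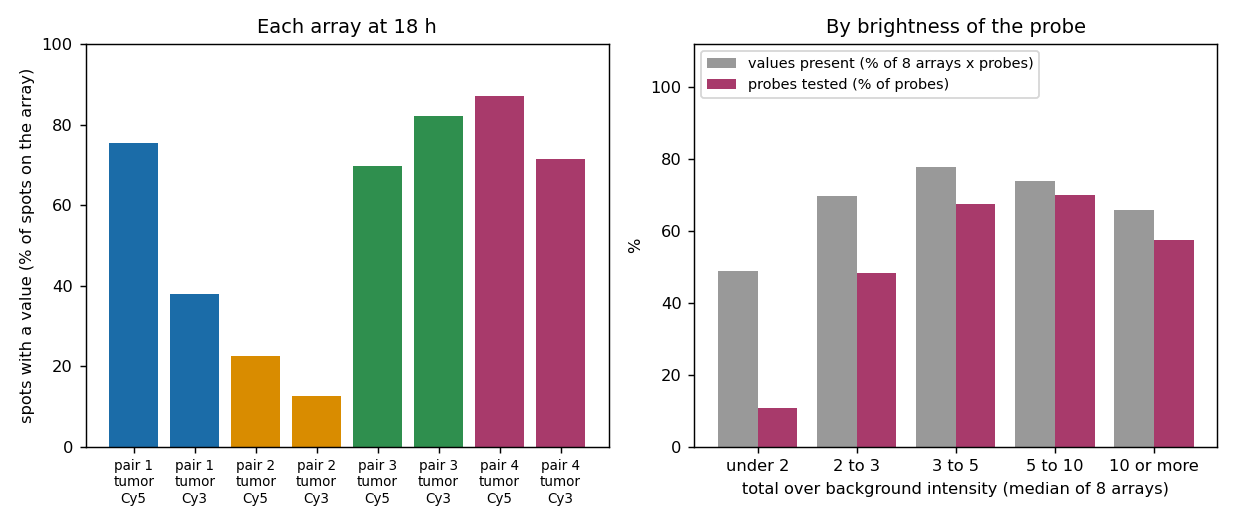
Spots with a value at 18 h. Left, percent of the 10080 spots of each array (bars, coloured by pair, tumor dye named under each); pair 2 holds the lowest shares. Right, for probes grouped by median total over background intensity, the percent of values present over the 8 arrays (grey) and the percent of probes with both orientations in at least 3 pairs (purple); 10.8% of probes under 2 times background and 70.0% of those at 5 to 10 times could be tested.

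A probe was tested where at least 3 of the 4 pairs had both orientations, which kept 2862 probes, of which 2641 carry the symbol of 1 gene (2603 genes). Of these probes 793 were measured in all 4 pairs and 2069 in 3, mostly in pairs 1, 3 and 4, since pair 2 contributed 924. The dye left a mark on single arrays. With both signs set as tumor over PBS, the log2 ratios of an array and its dye swap had correlations of 0.27, -0.18, 0.11 and -0.07 over the tested probes in pairs 1 to 4, and of 0.33, 0.14, 0.51 and 0.32 after the mean dye effect was removed. With the dye as a term, 16.4% of 7205 probes had a dye coefficient at an adjusted p under 0.05 (limma). Averaging the swapped arrays of a pair cancels a dye effect of equal size on both. Over the tested probes pair 2 correlated negatively with pairs 1, 3 and 4 (-0.20, -0.22 and -0.11), while those correlated with each other at 0.27 to 0.36. These are correlations across probes, which are not independent replicates.

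No transcript differed between tumor and PBS livers at 18 h by the main test. In limma's fit over the 12 pairs, with the 18 h mean tested against 0 and Benjamini-Hochberg adjustment over all 2862 probes, 0 probes (0%) had an adjusted p under 0.05, and the smallest adjusted p was 0.586. At an unadjusted p under 0.05 there were 217 probes, 86 higher and 131 lower in tumor livers (3.00% and 4.58% of the probes tested), against 143.1 expected with no effect. The ratios were small. The quartiles of the fitted log2 ratios were -0.06 and 0.04 and their median -0.01, the median standard error (SE) was 0.06, and 3 probes were at -0.5 or lower and 0 at 0.5 or higher. Above 0 in every measured pair were 385 probes (13.5%), and below 0 in every measured pair 514 (18.0%). The other 19 settings also called 0 probes, with 9 to 514 probes at an unadjusted p under 0.05. The smallest adjusted p of any setting was 0.0965, without pair 4. Leaving out pair 1, 2, 3 or 4 gave 119, 256, 86 and 237 probes at an unadjusted p under 0.05.

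Since no probe passed, the genes named below are those with the highest and lowest moderated t, and their values are a description of these pairs. Each of the 30 leading genes had an adjusted p of 0.586 in limma's fit, and no other gene named below had a smaller one. Gene names are those of the platform's annotation, updated by Entrez identifier. The probes of gene families with near-identical members, such as the cytochrome P450 and ribosomal protein genes, may also bind transcripts of relatives. A bulk liver ratio cannot tell fewer cells of a type from less RNA per cell.

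Among the 15 highest genes, Grcc10 on chromosome 6 came first. Its arrays read 0.24 and 0.27 in pair 1, -0.17 and 1.03 in pair 3, and 0.46 and 0.66 in pair 4 (tumor RNA in Cy3 first, then in Cy5), with pair 2 not measured. The pair means of 0.26, 0.43 and 0.56 were all above 0 and gave 0.41 ± 0.07 (SE, n = 3 pairs), a ratio of 1.33. The pair 3 value rested on the array with tumor RNA in Cy5 alone.

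Hint3, a histidine triad nucleotide hydrolase, had pair means of 0.40, 0.41 and 0.20 in pairs 1, 3 and 4, for 0.34 ± 0.06. Its arrays split by dye and not by pair. With tumor RNA in Cy3 they read 1.02, 0.81 and 0.93, and with it in Cy5 -0.22, 0.01 and -0.54. Pair 2, measured in the Cy5 orientation only, read -0.78, and with single orientations kept the mean was 0.06. Background-subtracted scans with median centring turned it to -0.07.

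Hs6st1, a sulfotransferase of heparan sulfate chains, had pair means of 0.14, 0.40 and 0.48 (0.34 ± 0.08, n = 3). Its arrays read 0.37 and -0.10 in pair 1, 0.19 and 0.60 in pair 3, and 0.96 and -0.00 in pair 4. All pair means were above 0, but 1 array in each of pairs 1 and 4 was not. Smc2, a subunit of the condensin complex that compacts chromosomes, was more even at 0.20, 0.19 and 0.11 (0.17 ± 0.05), with arrays between 0.03 and 0.30. Hdc, the enzyme that makes histamine from histidine, read 0.22, 0.15 and 0.14 in the pairs (0.17 ± 0.05) and again split by dye, with 0.48, 0.60 and 0.42 in Cy3 and -0.03, -0.29 and -0.15 in Cy5.

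Nfkbil1, an ankyrin-repeat protein related to the inhibitors of NF-kB, differed between table and scans. Its pair means were 0.42, 0.08 and 0.54 in pairs 1, 3 and 4, for 0.35 ± 0.10. Pair 3 was near 0, and arrays ran from -0.13 to 0.90. The probe was dim, at 1.86 times background. The background-subtracted scans with loess gave 1.33 ± 0.25, and the settings spread from 0.25 to 2.10.

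The other 9 of the 15 highest had fitted log2 ratios between 0.15 and 0.24. Single arrays of pair 2 read 0.71 for Nfkbil1, 0.10 for Ctc1, -0.07 for Rtraf, -0.04 for Mtx1 and -0.03 for Atp5j2. Grhpr, which reduces glyoxylate and so limits oxalate, was the only one of the 15 with both orientations in pair 2. It read 0.20, 0.04, 0.26 and 0.13 in pairs 1 to 4 (0.15 ± 0.04), above 0 in all 4, though -0.20 with median-centred scans. Atp5j2, a subunit of the mitochondrial ATP synthase, read 0.14, 0.41 and 0.16 (0.24 ± 0.07; -0.02 with median-centred scans), and Cct8, a subunit of the cytosolic chaperonin, 0.14, 0.15 and 0.37 (0.22 ± 0.07). Rtraf, Ctc1, Slc39a4, a zinc transporter, Mtx1, an import protein of the outer mitochondrial membrane, Nt5m and Washc3 made up the rest. Of these, Mtx1 and Slc39a4 turned below 0 with median-centred scans (-0.11 and -0.0014).

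**Figure D2:**
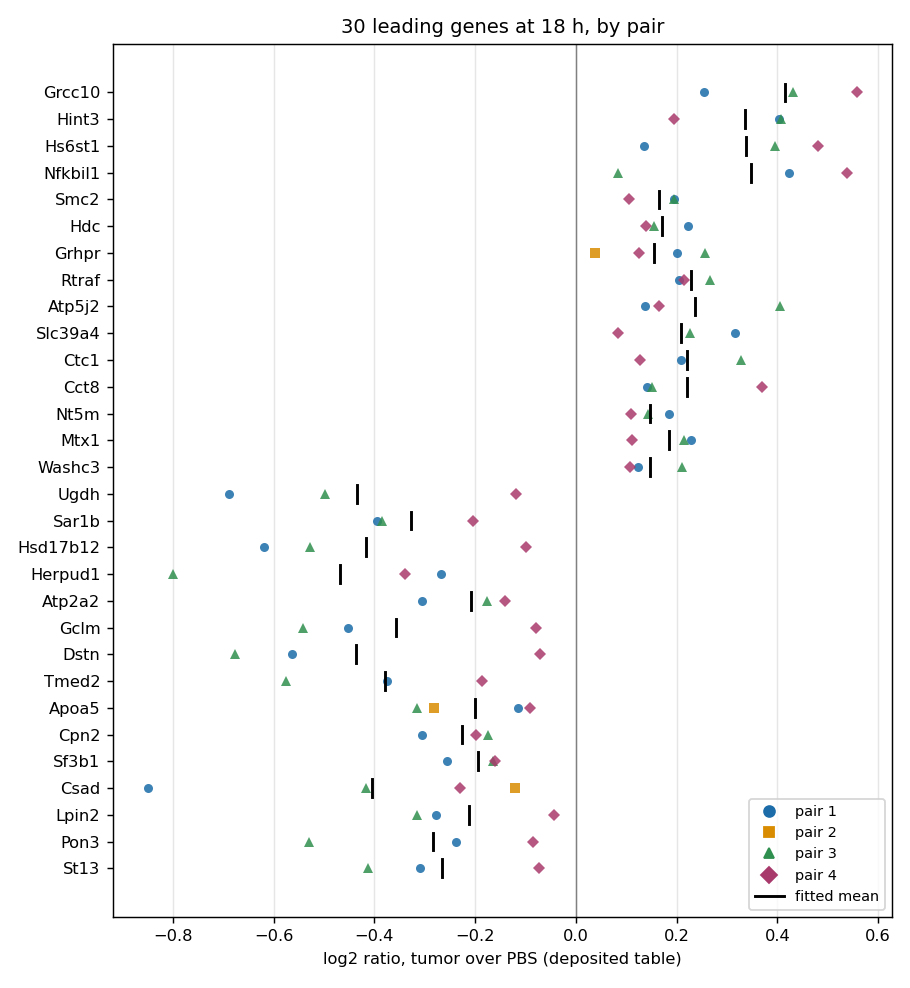
Log2 ratios of tumor over PBS for the 15 highest and 15 lowest genes by moderated t. Points are pair means, coloured and shaped by pair, and black bars are the fitted means; Grhpr, Apoa5 and Csad alone have a point from pair 2, and the lowest fitted mean shown is that of Herpud1 at -0.47.

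Among the 15 lowest genes, Herpud1, an ER membrane protein of the pathway that sends misfolded proteins to the proteasome, read -0.46 and -0.08 in pair 1, -0.58 and -1.01 in pair 3, and -0.29 and -0.39 in pair 4. All 6 arrays were below 0, and the pair means of -0.27, -0.80 and -0.34 gave -0.47 ± 0.11 (SE, n = 3), a ratio of 0.723. The only value of pair 2, with tumor RNA in Cy5, went the other way at 0.59. With it kept, the mean was -0.20.

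Sar1b, the GTPase that starts the coat of vesicles leaving the ER, read -0.36, -0.43, -0.31, -0.46, -0.11 and -0.30 on the arrays of pairs 1, 3 and 4. All 6 were below 0, for a mean of -0.33 ± 0.07, and the single array of pair 2 read 0.07. Atp2a2, the calcium pump of the ER membrane, had pair means of -0.31, -0.18 and -0.14 (-0.21 ± 0.05), with arrays from -0.41 to 0.00 and 0.01 on the single array of pair 2. Hsd17b12, an ER enzyme of fatty acid elongation, had pair means of -0.62, -0.53 and -0.10 (-0.42 ± 0.09), and its array in pair 2 read 0.24. For Sar1b, Atp2a2 and Hsd17b12 pairs 1 and 3 were lower than pair 4, and none of the single pair 2 arrays was below 0. Tmed2, a cargo receptor that cycles between ER and Golgi, had the same order at -0.38, -0.58 and -0.19 in pairs 1, 3 and 4 (-0.38 ± 0.09).

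Ugdh makes UDP-glucuronic acid, the sugar donor for glucuronidation. It read -0.53 and -0.85 in pair 1, -0.43 and -0.56 in pair 3, and -0.14 and -0.10 in pair 4, with -0.13 on the single array of pair 2. All 7 arrays were below 0. The pair means of -0.69, -0.50 and -0.12 gave -0.43 ± 0.10, a ratio of 0.740. Gclm, the regulatory subunit of the enzyme that starts glutathione synthesis, had pair means of -0.45, -0.54 and -0.08 (-0.36 ± 0.09), and arrays from -0.67 to 0.02, with -0.06 in pair 2. Pair 4 was nearest to 0 for both.

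The other 8 of the 15 lowest were Dstn, an actin-depolymerising protein, Apoa5, an apolipoprotein that lowers plasma triglyceride, Cpn2, a subunit of the plasma enzyme carboxypeptidase N, Sf3b1, a spliceosome subunit, Csad, an enzyme on the path from cysteine to taurine, Lpin2, a phosphatidate phosphatase, Pon3, a paraoxonase, and St13, a co-chaperone. Apoa5 and Csad were measured in all 4 pairs. Apoa5 read -0.12, -0.28, -0.32 and -0.09 (-0.20 ± 0.05), and Csad -0.85, -0.12, -0.42 and -0.23 (-0.40 ± 0.11). Both were below 0 in every pair.

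**Figure D3:**
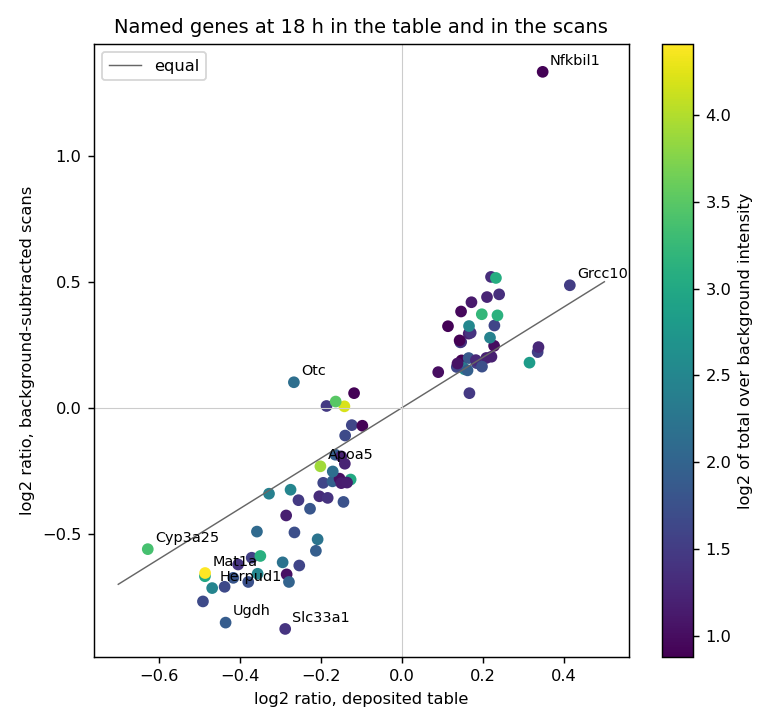
Log2 ratio at 18 h in the deposited table (horizontal) against the fit on background-subtracted scans with loess (vertical), 1 point per named gene, coloured by the log2 of total over background intensity; the grey line marks equal values. Nfkbil1, a dim probe, lies far above the line (0.35 against 1.33), Cyp3a25 close to it (-0.63 against -0.56), and Otc on the other side of 0 (-0.27 against 0.10).

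In the ER stress and unfolded protein response list, 18 of 28 genes on the array could be tested. Of these 16 were below 0 and 2 above (11.1% above, against 46.4% of all 2862 probes tested). Below 0 in every measured pair were 6, against 18.0% of all probes. At an unadjusted p under 0.05, 3 were lower and 0 higher, against 4.58% and 3.00% of all probes, and 0 passed the adjusted threshold. These shares of all probes, with 13.5% above 0 in every measured pair, are the background for every list count that follows. Members and lists were chosen with earlier results of these data known. Counts set beside that background, here and below, are thus a description and not a test. The median log2 ratio of the ER stress list was -0.10, against -0.01 over all probes. In pairs 1 to 4 the medians of the measured members were -0.12, 0.03, -0.15 and -0.05, so pairs 1, 3 and 4 were below 0 and pair 2, with 10 members, was not. The list's median stayed below 0 in all 19 other settings, from -0.36 to -0.03.

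After Herpud1, the members with the smallest p were Ern1, the sensor kinase IRE1, and Canx, the lectin chaperone calnexin. Ern1 read -0.09, -0.06 and -0.40 in pairs 1, 3 and 4 (-0.19 ± 0.06), but 0.08 with single orientations kept and 0.01 in the scans with loess. Canx read -0.72, 0.07, -0.17 and -0.20 in pairs 1 to 4 (-0.26 ± 0.11), with most of the size from pair 1. Other members were spread widely. Beside Dnajb9, a co-chaperone of the ER lumen, at -0.30 ± 0.16 (-0.14, -0.84 and 0.09 in pairs 1, 3 and 4), Creld2 was at -0.01, Pdia6 at -0.01 and P4hb, a protein disulfide isomerase, at 0.05, and Syvn1, the ubiquitin ligase of ER degradation, ran from -0.42 in pair 3 to 0.28 in pair 2. These genes, and Dnajb11 and Hsp90b1 named below, were chosen after their values were seen.

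Promoters of some of these genes are shown because part of the list holds a known response element. A reader can thus set a sequence beside each value. The ER stress element was searched as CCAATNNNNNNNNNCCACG and its second form as ATTGGNCCACG, on both strands, in RefSeq windows of GRCm38.p6 from 250 bases before to 50 after the gene start. Of 32851 such windows, 0.119% held the first and 0.0365% the second. Of the 16 list members with a window, 6 held the first form and 2 the second, and no window of the list held both. The list was written from genes of the unfolded protein response, so its share of windows with an element is not a result of these data. The windows of Herpud1 (chr8:94386179-94386478, plus strand), Dnajb11 (chr16:22857595-22857894, plus strand), Canx (chr11:50325624-50325923, minus strand) and Syvn1 (chr19:6046326-6046625, plus strand) follow, 5′ to 3′ along the gene, with the element, in each case on the gene's strand, in capitals. They pair, for each form, a member far below 0 with one nearer to it.
Herpud1: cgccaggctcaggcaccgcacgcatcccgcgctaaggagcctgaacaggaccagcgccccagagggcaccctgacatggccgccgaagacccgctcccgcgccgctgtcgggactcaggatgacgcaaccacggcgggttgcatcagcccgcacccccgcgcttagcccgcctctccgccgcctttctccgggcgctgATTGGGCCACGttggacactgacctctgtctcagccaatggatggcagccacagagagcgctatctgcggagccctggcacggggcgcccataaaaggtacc
Dnajb11: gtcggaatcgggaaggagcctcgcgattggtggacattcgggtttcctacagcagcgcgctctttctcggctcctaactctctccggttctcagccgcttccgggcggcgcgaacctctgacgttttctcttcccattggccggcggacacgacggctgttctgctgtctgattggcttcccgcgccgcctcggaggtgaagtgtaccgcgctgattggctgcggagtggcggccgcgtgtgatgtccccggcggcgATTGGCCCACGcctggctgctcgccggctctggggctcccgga
Canx: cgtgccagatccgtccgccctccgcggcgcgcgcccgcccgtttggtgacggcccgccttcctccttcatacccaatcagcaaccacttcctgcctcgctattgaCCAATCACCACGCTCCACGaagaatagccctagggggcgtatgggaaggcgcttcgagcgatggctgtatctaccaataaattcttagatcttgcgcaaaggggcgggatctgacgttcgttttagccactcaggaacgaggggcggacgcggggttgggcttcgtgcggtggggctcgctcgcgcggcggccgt
Syvn1: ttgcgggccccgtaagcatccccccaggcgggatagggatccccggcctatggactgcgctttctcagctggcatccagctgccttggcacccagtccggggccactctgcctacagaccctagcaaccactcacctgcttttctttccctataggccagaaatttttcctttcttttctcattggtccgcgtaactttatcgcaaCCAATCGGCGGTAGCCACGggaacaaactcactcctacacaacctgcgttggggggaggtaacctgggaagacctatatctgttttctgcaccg
The first base of the element lies at -52 from the gene start in Herpud1, -145 in Canx, -44 in Syvn1 and 7 in Dnajb11. Their log2 ratios at 18 h were -0.47, -0.26, -0.0037 and -0.09, and those of the 8 members with an element ran from -0.47 to -0.0037. Hsp90b1, which holds 2 copies of the first form, was at -0.12. The windows of Ern1 (-0.19), Dnajb9 (-0.30) and P4hb (0.05) hold neither form. A match describes these letters and is not evidence of binding.

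The list was also measured at the later times, and its difference between times was not tested. Means were below 0 for 16 of 18 members at 18 h, 11 of 18 at 72 h and 4 of 17 at 192 h. The share of all probes below 0 was not counted at the later times. The list's medians were -0.10, -0.02 and 0.05, against -0.01, -0.02 and -0.01 over all probes tested at 18 h. The pair medians overlapped, at 0.05, 0.15, -0.06 and -0.16 for pairs 1 to 4 at 72 h and 0.01, -0.04, 0.07 and 0.05 at 192 h, and the 192 h values of Hyou1, Sel1l and Dnajb11 rest on 1 pair each. Herpud1 was at 0.28 over 3 pairs at 72 h (0.07, 0.55 and 0.21) and -0.04 over 3 pairs at 192 h. Its 18 h value minus the mean of the later times was -0.59 ± 0.14 (limma, adjusted p = 0.9998 over 1362 probes). The test of that difference thus did not pass for Herpud1, nor for any other probe.

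**Figure D4:**
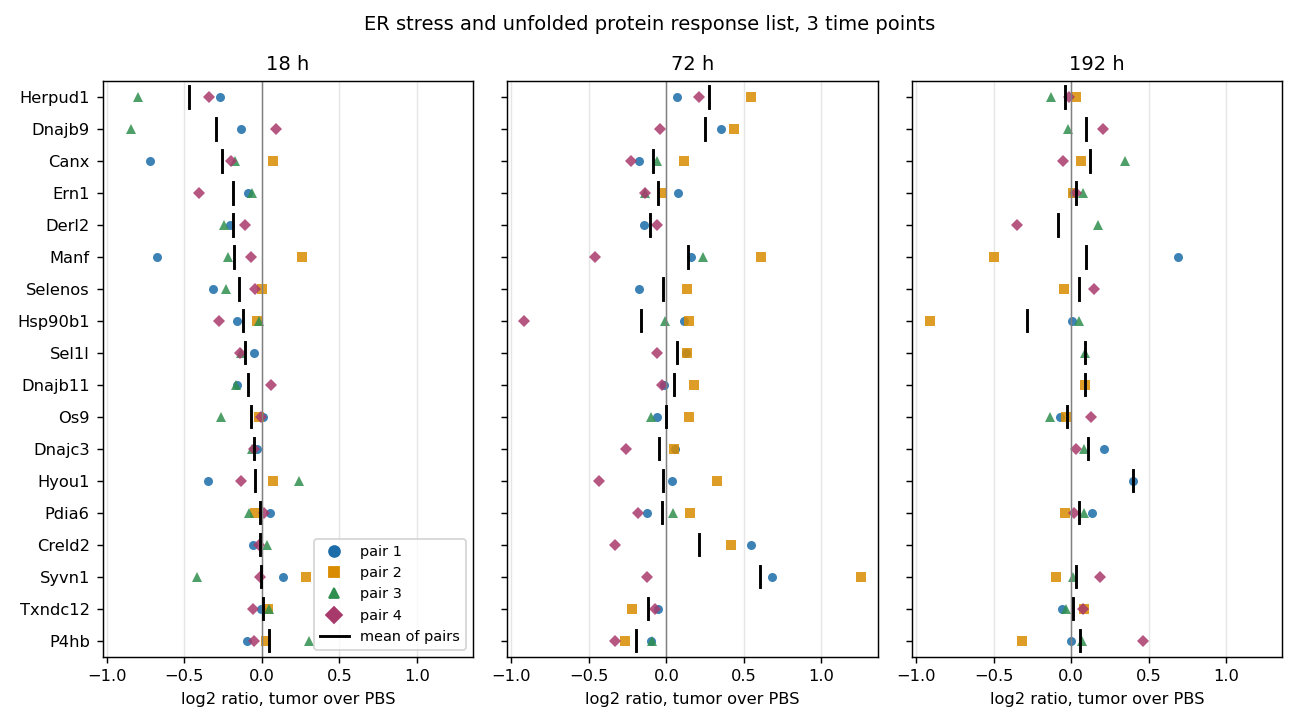
Log2 ratios of tumor over PBS for the 18 tested members of the ER stress and unfolded protein response list at 18, 72 and 192 h. Points are pair means, coloured and shaped by pair, and black bars are means over the pairs measured; at 18 h the bars of 16 members lie left of 0, and at 192 h those of 4 of 17.

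Of the 13 positive acute phase proteins tested, which rise in inflammation, 8 were above 0 and 5 below, with 0 at an unadjusted p under 0.05 in either direction. Their median log2 ratio was 0.03, below 0 in 6 of the 19 other settings. The pair medians were -0.00031, 0.0058, 0.46 and -0.12, so that pair 3 was far above the others, and without pair 3 the median was -0.095. Saa3, a serum amyloid A made by hepatocytes and macrophages, read 0.11, 0.65 and -0.03 in pairs 1, 3 and 4 (0.24 ± 0.13), high in pair 3 only. Itih3, a carrier of hyaluronan, read 0.45, 0.27 and -0.02 in pairs 1, 2 and 4 (0.23 ± 0.14). Crp, the C-reactive protein, was below 0 in all 4 pairs at -0.14, -0.20, -0.14 and -0.62 (-0.27 ± 0.13), with pair 4 far from the others.

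The list of negative acute phase and other plasma proteins had 4 of 6 tested members above 0, and its median of 0.04 was below 0 in 3 of the 19 other settings. In it Afm, the albumin relative afamin, was the highest at 0.17, 0.44 and 0.07 in pairs 1, 3 and 4 (0.23 ± 0.09). Of 10 complement components 5 were above 0 and 5 below. C1ra, a protease that starts the classical pathway, read 0.12, 0.25 and 0.08 (0.15 ± 0.06, but -0.16 with median-centred scans), and C8g, a chain of the terminal complex, 0.03, 0.47 and 0.10 in pairs 1, 2 and 4 (0.20 ± 0.10).

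Of the coagulation and fibrinolysis genes 10 of 12 were below 0 (16.7% above, against 46.4% of all probes), with a median of -0.11. At an unadjusted p under 0.05 there were 2 lower and 0 higher, against 4.58% and 3.00% of all probes. The pair medians were all below 0 at -0.10, -0.06, -0.04 and -0.14, and the median was below 0 in all 19 other settings (-0.39 to -0.07). F9, clotting factor IX, read -0.13, -0.54 and -0.19 in pairs 1, 3 and 4 (-0.29 ± 0.10). Serpinc1, antithrombin, read -0.07, -0.22 and -0.14 in pairs 1, 2 and 4 (-0.14 ± 0.05). It was one of the brightest named probes at 18.2 times background, and the scans with loess put it at 0.01. F13b, the carrier subunit of factor XIII, was at -0.17 ± 0.09 (n = 4).

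Signalling genes downstream of cytokines were split evenly. In the list of STAT3, NF-kB and interferon signalling 7 of 13 tested members were above 0, and the sign of the median changed in 7 of the 19 other settings. Besides Nfkbil1, Il6st, the shared receptor chain gp130, read -0.23, -0.004 and -0.22 in pairs 1, 3 and 4 (-0.15 ± 0.07). Cebpb, a transcription factor of the acute phase response, was below 0 in all 4 pairs at -0.04, -0.13, -0.20 and -0.28 (-0.16 ± 0.09). The other members of the 33 on the array had too few values to be tested.

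Amino acid catabolism and urea cycle genes had 17 of 22 members below 0 and a median of -0.10 (pair medians -0.12, -0.05, -0.05 and -0.07). At an unadjusted p under 0.05, 2 were lower and 0 higher, against 4.58% and 3.00% of all probes. The median was below 0 in all 19 other settings. Single members were less firm. Otc, ornithine transcarbamylase of the urea cycle, read -0.10, -0.62 and -0.07 in pairs 1, 3 and 4 (-0.27 ± 0.10) but 0.10 in the scans with loess, and Bcat2, a branched-chain aminotransferase, was at -0.12 ± 0.05 but at 0.06 there. Arrays of Bcat2 in pairs 1, 3 and 4 read -0.12, -0.28 and -0.25 with tumor RNA in Cy3 and -0.03, -0.01 and -0.02 in Cy5. Glud1, glutamate dehydrogenase, read -0.66, 0.06, -0.46 and -0.33 in pairs 1 to 4 (-0.35 ± 0.17).

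In the methionine, cysteine and one-carbon list 9 of 16 members were below 0. Gclm, Csad and Cth, 3 members, were lower at an unadjusted p under 0.05, against 4.58% of all probes. The list's median of -0.05 was above 0 in 2 of the 19 other settings. Cth, which makes cysteine from cystathionine, read -0.24, -0.59 and -0.24 in pairs 1, 3 and 4 (-0.36 ± 0.15). Mat1a, the hepatocyte enzyme that makes S-adenosylmethionine, was below 0 in all 4 pairs at -0.56, -0.06, -0.46 and -0.87 (-0.49 ± 0.25). Its arrays differed by dye. With tumor RNA in Cy3 they read -1.10, -0.11, -0.74 and -1.08 in pairs 1 to 4, and in Cy5 -0.02, 0.003, -0.18 and -0.66.

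Of the 12 genes of glycolysis, gluconeogenesis and glycogen metabolism 9 were below 0. Pck1, the rate-limiting enzyme of gluconeogenesis and a target of glucocorticoid and insulin, read -0.32, -0.10, -0.38 and -1.15 in pairs 1 to 4 (-0.49 ± 0.20, a ratio of 0.714). All pairs were below 0, and pair 4 was the lowest. Dusp1, another glucocorticoid target, was at -0.10 ± 0.06 (n = 3). In the circadian and glucocorticoid list as a whole 3 of 6 members were above 0.

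Fatty acid and triglyceride synthesis had 13 of 19 below 0, with a median of -0.06. At an unadjusted p under 0.05, 4 were lower and 1 higher, against 4.58% and 3.00% of all probes. The median of pair 1 was -0.11 and those of pairs 2, 3 and 4 were all -0.03. Slc33a1, a transporter of acetyl-CoA into the ER, read -0.37, -0.47 and -0.02 in pairs 1, 3 and 4 (-0.29 ± 0.09), and Mttp, which loads lipid onto apolipoprotein B, -0.18, -0.37 and -0.06 in the same pairs (-0.20 ± 0.06). Lpin2 read -0.28, -0.32 and -0.04 there. Pair 4 was nearest to 0 in each.

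Fatty acid oxidation and ketogenesis had 11 of 14 below 0 with a median of -0.05. Acadsb, an acyl-CoA dehydrogenase, was below 0 in all 4 pairs at -0.15, -0.04, -0.35 and -0.06 (-0.15 ± 0.06), and Acadm, the medium-chain dehydrogenase, was at -0.29 ± 0.16 (n = 3). Of 9 cholesterol genes 5 were below 0, with Msmo1, a sterol oxidase, at -0.28 ± 0.16, Scarb1, the HDL receptor, at -0.12 ± 0.07 and Ebp, a sterol isomerase, at 0.17 ± 0.08. The pair medians of that list ran from -0.28 in pair 1 to 0.08 in pair 2. Bile acid synthesis and transport had 12 of 15 below 0, 0 of them at an unadjusted p under 0.05, with Slc10a1, the bile acid uptake carrier, at -0.13 ± 0.07 (n = 4).

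The lowest log2 ratio of the 2862 probes was that of a drug-metabolising enzyme. Cyp3a25, a cytochrome P450, read -1.28, 0.09, -0.81 and -0.51 in pairs 1 to 4, for -0.63 ± 0.19, a ratio of 0.647. Pairs 1, 3 and 4 were low and pair 2 was not. Its sign held in all 19 other settings (-0.87 to -0.41). Over the 16 cytochrome P450 and oxidoreductase genes 10 were below 0. The pair means of Cyp2c40 (0.14 ± 0.05) and Cyb5r3 (0.22 ± 0.10) were above 0 in pairs 1, 3 and 4. With median-centred scans these genes were at -0.12 and -0.16. Cyp2c40 split by dye in pairs 3 and 4, at 0.76 and 0.69 with tumor RNA in Cy3 and -0.38 and -0.52 in Cy5. Conjugation enzymes and esterases had 9 of 11 below 0, led by Ugdh and by Gsto1, a glutathione transferase, at -0.18 ± 0.07.

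Antioxidant and paraoxonase genes had 11 of 14 below 0 (21.4% above, against 46.4% of all probes) and a median of -0.10. At an unadjusted p under 0.05 there were 4 lower and 0 higher, against 4.58% and 3.00% of all probes. The pair medians were -0.27, 0.01, -0.11 and -0.05. Besides Gclm, Pon3 read -0.24, -0.53 and -0.09 in pairs 1, 3 and 4 (-0.28 ± 0.08), and Txn1, thioredoxin, was below 0 in all 4 pairs at -0.37, -0.12, -0.15 and -0.05 (-0.17 ± 0.05). Autophagy and lysosome genes had 10 of 17 below 0, and 3 were lower at an unadjusted p under 0.05, against 4.58% of all probes. Lipa, the lysosomal acid lipase, read -0.97, -0.41 and -0.09 in pairs 1, 3 and 4 (-0.49 ± 0.14), Gabarapl2, an autophagosome protein, -0.52, -0.54 and -0.05 (-0.37 ± 0.11), and Atg5 was at -0.14 ± 0.06. Pair 4 was again closest to 0.

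Heat shock proteins had 5 of 11 members above 0, from Cct8 down to Hsp90aa1, the inducible cytosolic chaperone, at -0.36, -0.43 and 0.03 in pairs 1, 3 and 4 (-0.25 ± 0.12). Iron, heme and metallothionein genes had 8 of 11 above 0, and 4 were above 0 in every measured pair, against 13.5% of all probes. Their median of 0.05 turned below 0 with median-centred or normexp scans. Alad, the second enzyme of heme synthesis, read 0.17, 0.01, 0.40 and 0.06 (0.16 ± 0.08), Urod, a later enzyme of the pathway, was at 0.14 ± 0.07 (-0.11 with median-centred scans) and Hmox2, a heme oxygenase, at 0.18 ± 0.09 (-0.02 with normexp).

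Of 31 cytosolic ribosomal protein genes 24 were above 0 with a median of 0.06, but pair 2, with 29 members, was at -0.15 against 0.03, 0.22 and 0.08 in pairs 1, 3 and 4, and the median turned below 0 with median-centred scans (-0.18) and in pairs 1 and 2 alone. Rpl37, a protein of the large subunit, read 0.66, -0.20, 0.59 and 0.21 (0.32 ± 0.14; -0.17 with median-centred scans), Rpl29 was at 0.17 ± 0.07, and Rps12 at -0.16 ± 0.06 (0.02 in the scans with loess). Of 13 proteasome genes 11 were above 0, with a median of 0.03 that turned below 0 without pair 3, in pairs 1 and 2 alone and with median-centred scans, and Psmc5, a subunit of its cap, read 0.18, 0.40 and 0.05 in pairs 1, 3 and 4 (0.21 ± 0.07). Translation factors had 7 of 11 above 0, with Eif4h, a cofactor of the initiation helicase, at -0.14 ± 0.05. Arrays of Eif4h in pairs 1, 3 and 4 read -0.30, -0.21 and -0.28 with tumor RNA in Cy3 and 0.08, -0.14 and 0.04 in Cy5.

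Mitochondrial oxidative phosphorylation subunits, the largest list tested, had 25 of 44 above 0. Their median was 0.02, below 0 in 3 of the 19 other settings. At an unadjusted p under 0.05, 6 were higher and 1 lower, against 3.00% and 4.58% of all probes. Ndufb10, a subunit of complex I, was above 0 in all 4 pairs at 0.09, 0.08, 0.34 and 0.15 (0.17 ± 0.06), and Uqcrb, of the next complex, was at 0.17 ± 0.06, with -0.01 in median-centred scans. Mitochondrial ribosomal proteins were even, with 20 of 38 above 0, among them Mrps21 at 0.20 ± 0.08 (-0.05 with median-centred scans) and, on the other side, Mrpl15 at -0.14 ± 0.05 and Mrps22 at -0.15 ± 0.06. Of 7 cell cycle genes 5 were above 0, led by Gins2, a replication factor, at 0.11 ± 0.04. The growth hormone and IGF list had 4 members tested, of which 1 was above 0.

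**Figure D5:**
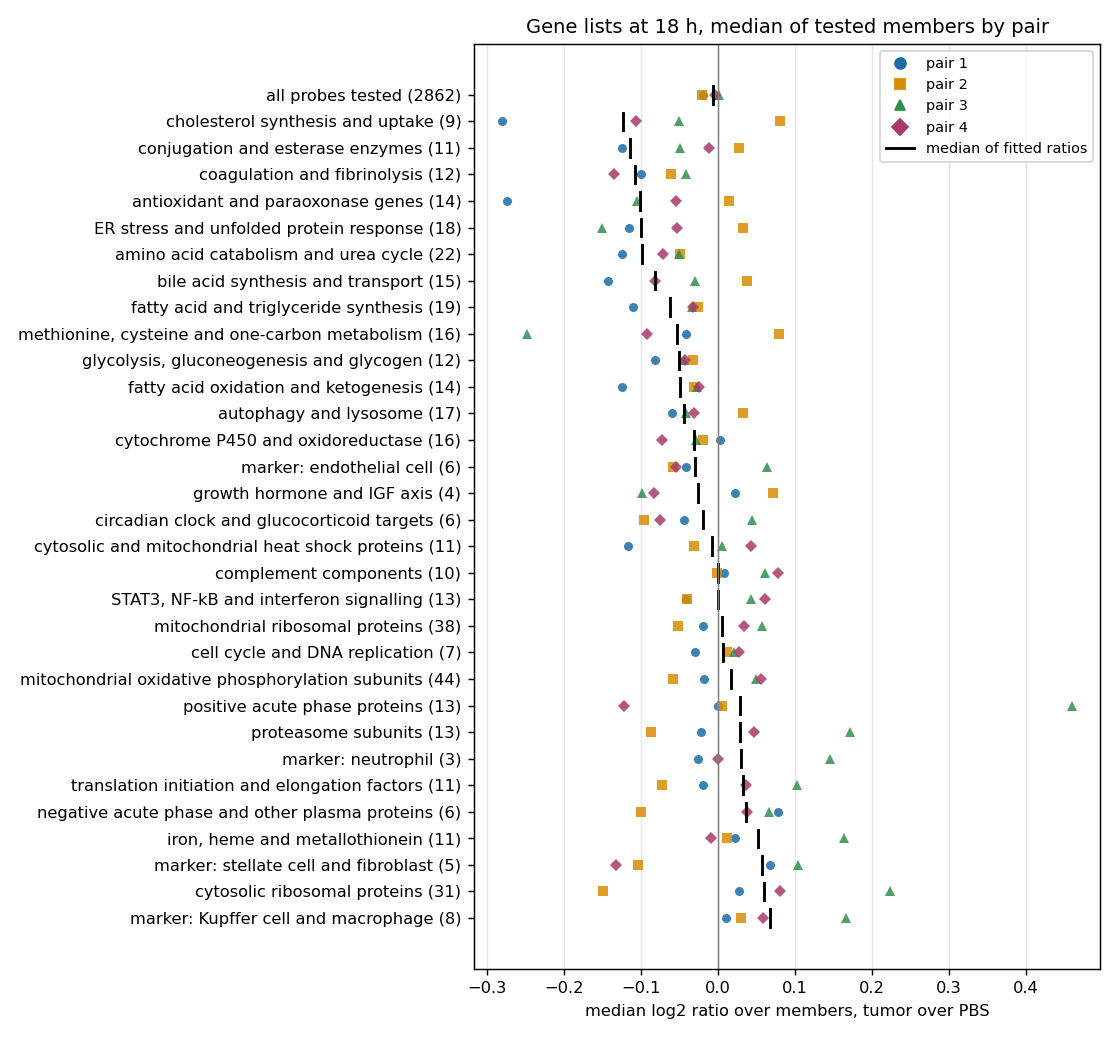
Median log2 ratio of tumor over PBS at 18 h over the tested members of each list with at least 3 members (number in parentheses), by pair (coloured points), with the median of the fitted ratios as a black bar; all 2862 probes are on the top line. The acute phase list spans from -0.12 in pair 4 to 0.46 in pair 3, wider than the other lists.

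All 5 hepatocyte markers on the array were measured above their local background, at medians of 5.53 to 21.2 times it. The 2 that could be tested were below 0, with a median of -0.26 and pair medians of -0.25, -0.06, -0.27 and -0.48. They were Mat1a, whose arrays differed by dye as given above, and Hnf4a, a transcription factor of hepatocytes, at -0.04 ± 0.07 (n = 3). Of 16 Kupffer cell and macrophage markers on the array 8 could be tested, and 7 of these were above 0 with a median of 0.07 and pair medians of 0.01, 0.03, 0.17 and 0.06. C1qc, a chain of complement C1q made by macrophages, was above 0 in all 3 measured pairs at 0.27, 0.16 and 0.01 (0.15 ± 0.06). The median turned below 0 in pairs 1 and 2 alone. Pair 3 had the highest pair median here, as in the acute phase list (0.46) and in the endothelial (0.06), stellate cell (0.10), neutrophil (0.15), ribosomal protein (0.22) and proteasome (0.17) lists, while C1qc itself was highest in pair 1. Whether a shift in cell content had a part in the pair 3 values was not tested.

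Of the 6 endothelial markers tested 4 were below 0. Clec4g, a lectin of sinusoidal endothelium, was below 0 in all 4 pairs (-0.14 ± 0.05), and Ehd3, also of that endothelium, was above 0 in 3 of 3 (0.14 ± 0.06). Stellate cell and fibroblast markers had 3 of 5 above 0, with Col1a2, a chain of type I collagen, at 0.14 ± 0.07. Of 11 neutrophil markers on the array 3 were tested, among them Il1b at 0.09 ± 0.05 (n = 3), and 2 were above 0. Cholangiocyte, lymphocyte and the muscle, adipose and pancreas markers had 2, 1 and 2 tested members, and the erythroid list had 0 of 7. For these lists the arrays give too few values to say whether the cell content differed.

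Among tested probes the median ratio was near 0 at every brightness. Median log2 ratios were 0.001, -0.01, -0.01, -0.02 and -0.01 for tested probes under 2, at 2 to 3, 3 to 5, 5 to 10 and above 10 times background, and in pair 2 alone they went from 0.03 under 2 times to -0.05 above 10 times. The probes at an unadjusted p under 0.05 were unevenly spread. Under 2 times background 17 were higher and 8 lower of 621, and at 3 to 5 times background 21 were higher and 40 lower of 551. From dim to bright the share lower was 1.29%, 4.76%, 7.26%, 4.93% and 7.07%. The antioxidant and coagulation lists had median intensities of 3.60 and 5.69 times background, against 2.42 for all tested probes. Their counts were thus not set against probes of like brightness.

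The contrast of 18 h with the later times asked what was particular to the early liver. Of 1362 probes with 3 or more pairs at every time, 0 differed at an adjusted p under 0.05 (0%; limma), with the smallest adjusted p at 0.9998. At an unadjusted p under 0.05 there were 33, against 68.1 expected with no effect, and the other settings gave 0 calls and 8 to 189 such probes. The genes that follow were named for their 18 h values, a choice that favours a difference on the same side of 0. Pck1 was at -0.49 at 18 h, 0.04 at 72 h and 0.09 at 192 h, a difference of -0.55 ± 0.24. Cyp3a25 was at -0.63, -0.20 and -0.13, a difference of -0.46 ± 0.23. Gclm was at -0.36, -0.02 and 0.12, a difference of -0.41 ± 0.11. Each difference had an adjusted p of 0.9998, so no gene was shown to behave differently at 18 h than later.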

How the data were processed

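Livers of tumor cell and PBS mice were compared on dye-swapped 2-colour arrays. The log2 ratios in the deposited value table are the authors' processed values (software, normalization and filters: not given in the sources used here). Per the file headers, each of the 3 scan tables of an array gives the intensity of channels A and B corrected for background, the background, flags and a saturation factor, a fraction deposited per spot. Scan rows carry no probe numbers and were tied to probes by block order. Symbols came from the platform's annotation (9066 probes with 1 symbol, 12 with several, 1002 not listed; 8977 matched by Entrez identifier to GRCm38.p6).

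Swapped arrays were averaged and counted as 1 replicate. Pair means (both orientations needed, in at least 3 of 4 pairs) were fitted in limma 3.58.1 (R 4.3.3, with the data.table package, version 1.17.8) with a coefficient per time over 12 pairs, which share 1 estimate of the spread; a pair without both orientations was left out for that probe. P-values are two-sided, with Benjamini-Hochberg adjustment over all probes tested and a threshold of 0.05. The fit was tested on simulated data. Named genes were the 15 highest and 15 lowest by moderated t, and up to 3 members of each list with the smallest p; other named genes are marked. Values per array are given for the leading 6 in each direction, and for some other genes. Where several probes named a gene, the brightest stood for it in lists. Members and lists were chosen with earlier results of these data known. Alternatives used the scans (loess with span 0.3, median centring, or normexp with offset 50), other rules for missing spots, dye, spread and weights, a filter on dim probes, and fewer pairs. No control spots are marked. The number of arrays limits the precision.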

Additional observations from a re-analysis of the deposited data

Results flagged for a closer look

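Of 51 sets of values examined (a gene's or list's 4 pairs, and the 8 arrays' numbers of spots), 4 held a pair far from the others, where chance gives about 1 in 20 sets. Crp was at -0.62 in pair 4, against -0.14 to -0.20 in the others. The median of the fatty acid oxidation and ketogenesis list was -0.12 in pair 1, and that of the fatty acid and triglyceride synthesis list -0.11 in pair 1, both below pairs 2 to 4. The median of the endothelial markers was 0.064 in pair 3 and below 0 in the other pairs. In pair 2 it rests on 1 member, against 6 in each other pair.

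Some named genes had every pair at 18 h on one side of 0 and every pair at a later time on the other. Among those with 3 or more measured pairs at both times, there were 7. Many genes were named for their 18 h values, and the same count over all probes was not made. At 18 h alone, 13.5% of all 2862 probes were above 0 in every measured pair and 18.0% below. The 7 genes are thus a description. Apart from the contrast with the mean of both later times, which called 0 of 1362 probes, this was not tested gene by gene. Herpud1 was at -0.47 at 18 h and 0.28 at 72 h. Atp5j2 was at 0.24 at 18 h and -0.24 at 192 h. Gclm was at -0.36 and 0.12, and Cpn2 at -0.23 and 0.077, at 18 and 192 h. Serpinc1 was at -0.14 and 0.13, and Ern1 at -0.19 and 0.032, at the same times. Cyp2c40 was at 0.14 at 18 h and -0.082 at 72 h, and its 18 h arrays split by dye in pairs 3 and 4.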

How the results depend on the processing

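All 19 other settings called 0 probes at 18 h, and all that allowed the contrast with later times called 0 there (it could not be fitted with the 18 h pairs alone). The 217 probes at an unadjusted p under 0.05 became 514 with arrays as units and a dye term (7239 probes), 370 with single orientations kept, 350 with 2 pairs required (5931 probes), 349 with array quality weights, 40 with all 4 pairs required (793 probes), and 9 in pairs 1 and 2 alone (868 probes), against 172 in pairs 3 and 4 alone. Leaving out 1 pair gave 86 (without pair 3) to 256, with 119 without pair 1. Of the 217 probes, 89 were among those at that threshold in the scans with loess (262 of 4071), 59 with median centring and 73 with normexp. The share of higher among probes at that threshold was 39.6%, and 49.0% with the dye term, 51.3% without pair 1 and 11.1% in pairs 1 and 2 alone.

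With the replicate number as a replicate block, 231 probes were at that threshold and 0 were called; same-numbered pairs of different times correlated between -0.30 and 0.48 in their deviations, so the numbers were not taken to pair the samples.

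Of 86 named genes 68 kept their sign in every setting in which they were fitted. Signs turned with median-centred scans for Hint3 (-0.066), Grhpr (-0.20), Atp5j2 (-0.019), Slc39a4 (-0.0014), Mtx1 (-0.11), C1ra (-0.16), Bcat2 (0.27), Cyp2c40 (-0.12), Cyb5r3 (-0.16), Urod (-0.11), Rpl37 (-0.17), Uqcrb (-0.013) and Mrps21 (-0.047). With loess scans they turned for Serpinc1 (0.0059), Ern1 (0.0072), Otc (0.10), Bcat2 (0.058) and Rps12 (0.025), and with normexp for Serpinc1 (0.0023), Otc (0.24), Bcat2 (0.47), Hmox2 (-0.018), Rps12 (0.015) and Uqcrb (-0.051). Ern1 also turned with single orientations kept (0.081). The cause was not tested. Of 31 list medians 13 kept their sign in every setting. Signal over background limits what dim probes can show, where table ratios were smaller than those of the background-subtracted scans.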
